A study of Mus musculus with 20 samples.

Results

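Semaphorins are a family of secreted and cell surface ligands, plexins are their main receptors, and neuropilins are co-receptors for the secreted forms. The genes described here were chosen by symbol from the cecum RNASeq of mice fed resistant potato starch (RPS), as all semaphorins of classes 3 to 7, all plexins, and both neuropilins. There were 31 such genes among the 19887 in the count table, of which 7 encode secreted ligands, 12 membrane-spanning ligands, 1 a ligand with a glycosylphosphatidylinositol (GPI) anchor, 9 plexins, and 2 neuropilins. The family was selected on the behavior of a single member, Sema7a, whose mRNA was already known to be lower with starch in these mice. Values of Sema7a are therefore given as a description with no test, and the results tested below concern the other members.

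C57BL/6 mice ate the Total Western Diet (TWD), a rodent diet modeled on American nutrient intakes, for 6 weeks after weaning and then 1 of 4 diets for 3 weeks. These were the TWD alone (0% RPS) and the TWD with 2, 5, or 10% RPS by weight, and RNA from the cecum of 5 mice per diet was examined. RPS is uncooked potato starch, much of which escapes digestion in the small intestine and reaches the cecum. All groups were the same inbred strain on the same base diet, the cecal wall was sampled as a whole tissue, and the mice of each diet are numbered 1 to 5 in the order of their label numbers.

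Semaphorins were first known for steering growing axons. A semaphorin binds a plexin on a neighboring cell, which changes the state of small GTPases inside that cell and so remodels its cytoskeleton and adhesion. In the gut wall members of the family are known in epithelium, vessels, enteric nerves, and immune cells. Sema7A, the GPI-anchored ligand, binds plexin C1 and the integrin made of alpha 1 and beta 1 chains.

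The start regions of Sema7a and Plxnc1 are shown first, because this ligand and its receptor had the lowest and the highest log2 fold change of the family with 10% RPS. Both sequences are RefSeq promoters of GRCm38.p6, each with 300 bases from 250 before to 50 after the start of transcription, and each was found once in GRCm39. Sema7a lies on the plus strand at chr9:57939862-57940161 of GRCm38.p6 (chr9:57847145-57847444 of GRCm39), and Plxnc1 on the minus strand at chr10:94944796-94945095 (chr10:94780658-94780957 of GRCm39). Capitals mark GC boxes (GGGCGG, either strand) and, in Sema7a, the core of a cAMP response element (TGACG).
Sema7a: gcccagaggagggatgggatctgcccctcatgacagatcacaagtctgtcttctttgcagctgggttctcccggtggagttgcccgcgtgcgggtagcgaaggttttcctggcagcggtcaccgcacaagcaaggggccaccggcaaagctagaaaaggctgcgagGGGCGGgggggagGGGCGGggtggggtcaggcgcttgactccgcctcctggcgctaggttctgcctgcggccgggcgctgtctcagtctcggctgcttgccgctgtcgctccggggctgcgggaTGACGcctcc
Plxnc1: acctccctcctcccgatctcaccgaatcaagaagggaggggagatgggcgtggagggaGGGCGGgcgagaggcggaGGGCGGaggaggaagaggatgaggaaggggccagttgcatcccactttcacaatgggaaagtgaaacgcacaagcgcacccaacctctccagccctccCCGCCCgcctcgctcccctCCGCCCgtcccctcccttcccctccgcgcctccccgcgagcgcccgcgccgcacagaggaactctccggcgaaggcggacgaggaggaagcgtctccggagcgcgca
The Sema7a window held 2 GC boxes and 1 such core, and the Plxnc1 window held 4 GC boxes. Of the 32851 promoters in the same table, 35.7% held a GC box and 20.8% the core, so these letters are common. The other letters searched on both strands were CCAAT (in 37.4% of all promoters), TATAAA (13.6%), CACGTG (7.15%), and TGANTCA (7.81%), and neither window held any of them. GC content was 67.3% for Sema7a and 69% for Plxnc1, compared with a median of 52.7% over all promoters.

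Total counts per mouse ranged from 14967798 to 42687283, and a floor of 3 counts was between 0.0698 and 0.190 CPM (counts scaled to library size), which covers counting error only. Enough counts for testing were present for 15348 genes, including 30 of the 31 members. Sema5b, a membrane-spanning ligand, had 0 to 13 counts per mouse and was not tested. Epithelial markers were abundant in every mouse, with Epcam at a mean of 1792 CPM on 0% RPS. The RNA came from a mixed tissue, so fewer cells of a type and less RNA per cell cannot be told apart. The p-values below measure the spread between the mice of these diets.

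To compare genes with one another, CPM were divided by the length of all exons in kilobases (RPKM). On this scale the receptor Plxnb2, a plexin of epithelium and other tissues, had the highest mean of the family over all mice, with 51.6 ± 4.82 RPKM (SD, n = 20), followed by the ligands Sema4g with 49.1 ± 5.84 RPKM and Sema4a with 38.2 ± 3.65 RPKM. With the longest transcript as length, Sema4g was first with 100.6 RPKM and Plxnb2 second with 62.7 RPKM, and on 0% RPS alone Sema4g (50.2 RPKM) was also above Plxnb2 (49.8 RPKM), so the order of these genes is not settled. By exon length these 3 genes stood above all others in every mouse. Then came Sema4b at 18.3 RPKM, Sema3c at 16.1 RPKM, Sema3b at 14.5 RPKM, and Sema7a at 13.4 RPKM. The mice overlapped between 28 of the 30 pairs of neighbors in the order of levels, and the ranges were apart only between Sema4a and Sema4b and between Sema3e and Sema5b. Plxnb2 exceeded the level of 95.9% of tested genes. At the other end were Sema4f at 0.133 RPKM, Sema3e at 0.116 RPKM, and Sema5b at 0.0289 RPKM.

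**Figure D1:**
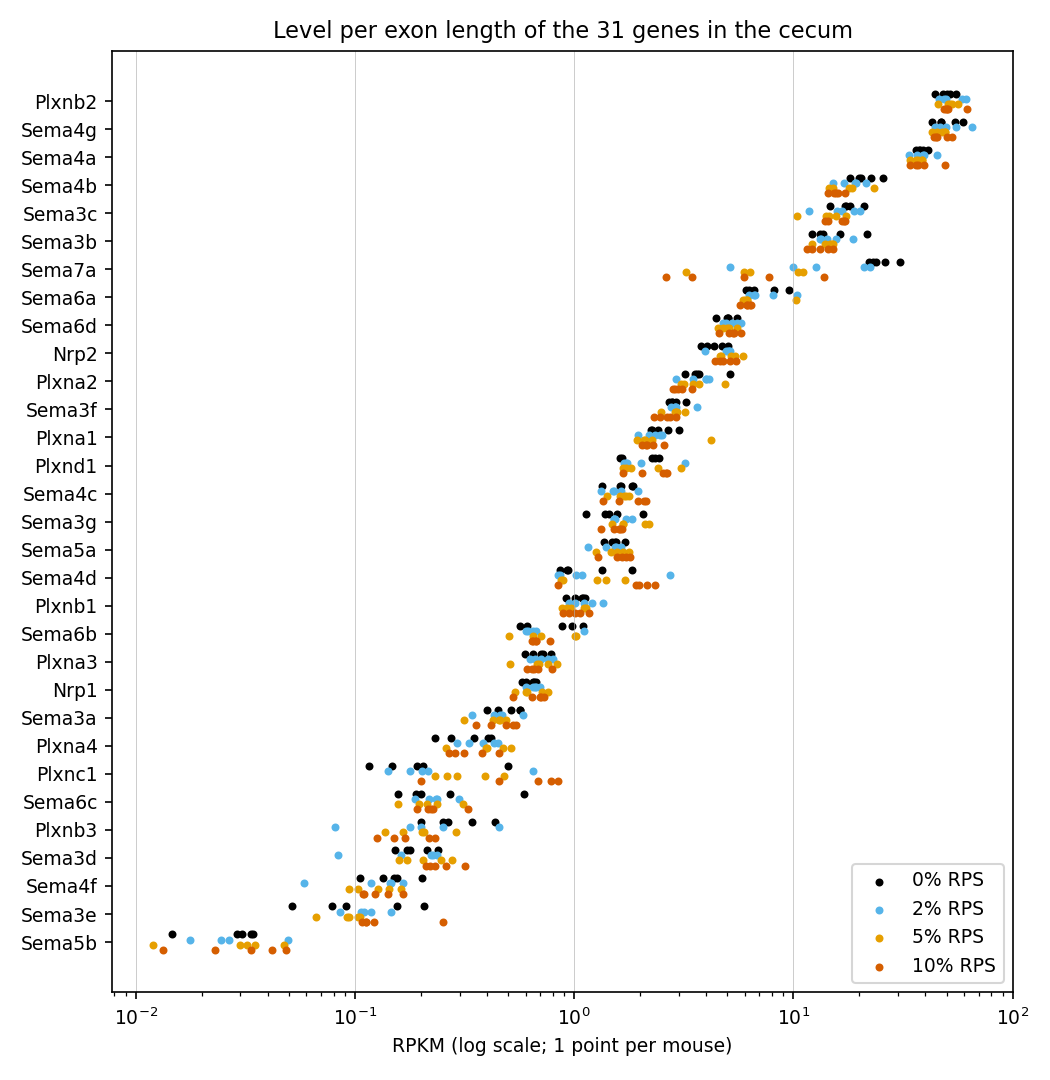
Level per exon length (RPKM, log scale) of the 31 genes, with 1 point per mouse colored by diet. Plxnb2, Sema4g, and Sema4a lie at 33.6 RPKM or more in every mouse, and the points of Sema7a spread from 2.63 to 30.5 RPKM. The 1 mouse with 0 counts of Sema5b is not drawn for that gene.

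Sema7a (ENSMUSG00000038264, chromosome 9 of GRCm39, 57847375 to 57870151, plus strand) had a wide range between mice. On 0% RPS the 5 mice had 101, 73.7, 87.0, 79.1, and 76.6 CPM. On 2% RPS they had 42.1, 69.8, 33.0, 74.5, and 17.0 CPM. All 5 mice on 0% RPS were high and lay close together, whereas those on 2% RPS were scattered from near the 0% level to far below it, with 24 of 25 pairs of mice lower on 2% RPS. On 5% RPS the mice had 34.7, 36.6, 21.1, 19.9, and 10.8 CPM. On 10% RPS they had 11.4, 8.73, 19.7, 45.8, and 25.7 CPM. Every mouse on 5 or 10% RPS was below every mouse on 0% RPS, and mouse 4 on 10% RPS was the highest of these 10. The diets with 2, 5, and 10% RPS overlapped one another.

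The mean of Sema7a was 83.5 CPM on 0% RPS, 47.3 CPM on 2% RPS, 24.6 CPM on 5% RPS, and 22.3 CPM on 10% RPS (n = 5 each). The log2 fold change against 0% RPS was -0.82 with 2% RPS (SE 0.43, 95% interval -1.73 to 0.08, which includes 0). It was -1.76 (SE 0.44) with 5% RPS and -1.92 (SE 0.44) with 10% RPS. These 3 comparisons share the 5 mice on 0% RPS. The ratio of the 5% to the 10% mean was only 1.11, within the spread of these diets, and the ratio of the 0% to the 10% mean was 3.75. In the order of RPKM within the family Sema7a stood at place 4 on 0% RPS and at place 7 on each starch diet. Its SD of log2 CPM was 0.18 among mice on 0% RPS but 0.74 pooled over the diets, and the pooled value exceeded that of 94.5% of tested genes. Of its exon length, 0.78% overlaps another annotated gene.

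**Figure D2:**
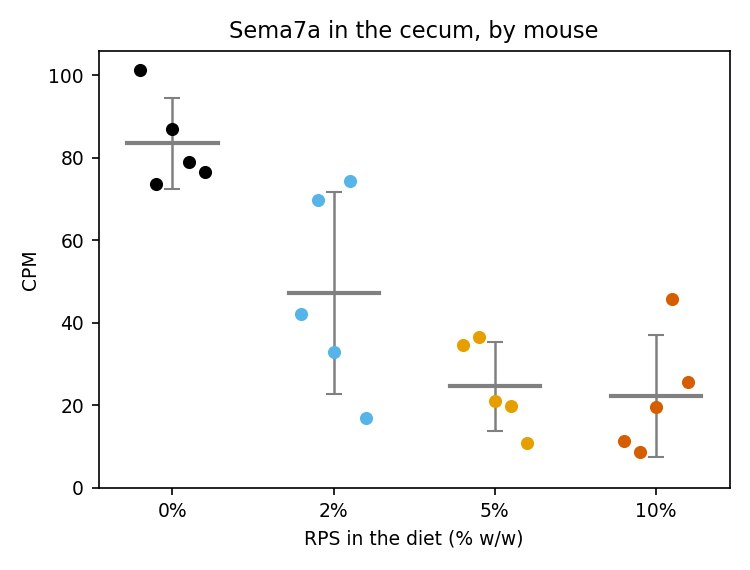
Sema7a in CPM (vertical axis) by percentage of RPS in the diet, with 1 point per mouse and grey bars for the mean and SD of 5 mice. The mice on 0% RPS lie between 73.7 and 101 CPM, those on 2% RPS spread from 17.0 to 74.5 CPM, and all mice on 5 and 10% RPS lie at 45.8 CPM or below.

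Scores of several marker lists had different means on 0 and 10% RPS, but none of the 16 lists passed adjustment. The smooth muscle list (Acta2, Myh11, Tagln, Cnn1, Des, Actg2, all tested) had a mean score of 8.88 log2 CPM on 0% RPS and 9.65 on 10% RPS (two-sided exact permutation test, p = 0.0238, Benjamini-Hochberg adjusted p = 0.127 over 16 lists). Summed over the list, mice on 0% RPS had 2441 to 5668 CPM and mice on 10% RPS 3993 to 6694 CPM, and 1 of the 6 genes was called higher, beside 1.04% of all genes called. The goblet cell list had 10.4 log2 CPM on 0% RPS and 9.91 on 10% RPS (exact p = 0.00794, the smallest that 5 mice against 5 allow, adjusted p = 0.0635), with sums of 8361 to 11390 and 6721 to 8104 CPM, and 1 of its 6 genes was called. On the surface colonocyte list 1 of 5 genes was called, with scores of 9.37 and 9.46 log2 CPM. The crypt and proliferating list had 4.25 and 4.54 log2 CPM (exact permutation p = 0.00794, adjusted p = 0.0635), and the fibroblast list 5.89 and 6.19 log2 CPM (exact permutation p = 0.0318, adjusted p = 0.127). At an unadjusted p under 0.05 by edgeR, where 19.5% of all genes stood, genes within these lists moved both ways. On the surface colonocyte list 2 were higher and 1 lower, and on the fibroblast list 3 were higher and 1 lower, so these scores average opposite changes. On the crypt and proliferating list 1 was higher and 0 lower. With the smooth muscle score as a covariate the log2 fold change of Sema7a was -1.36 with 10% RPS and -0.996 with 5% RPS. With the B cell score it was -2.02 with 10% RPS. Whether tissue composition had a part in the level of Sema7a was not otherwise tested. Within diets, the Pearson correlation of Sema7a was -0.56 with the smooth muscle score, -0.60 with the fibroblast score, and 0.52 with the goblet score (n = 20 mice), given as a description. The goblet value rested on few mice, since r was 0.23 without the 2 farthest from the median score. Spearman's rho with the goblet score was 0.36.

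The 10 genes whose log2 CPM followed Sema7a most closely across the 20 mice, by Spearman correlation and as a description only, were Ces2a, Galnt3, Slc2a1, Creb3l3, Zg16, Gprc5a, Cldn4, Dgat2, Arl14, and Hilpda, with rho between 0.91 and 0.94. The points share diets and libraries. Ces2a, an intestinal carboxylesterase, had 1053 ± 213.3 CPM on 0% RPS and 462 ± 245.7 CPM on 10% RPS (SD, n = 5). Creb3l3, a transcription factor of liver and gut lipid metabolism, had 163 ± 37.7 and 47.8 ± 28.3 CPM. Slc2a1 is the glucose transporter GLUT1, Cldn4 a tight junction claudin, Zg16 a goblet cell granule protein, Dgat2 an enzyme of triglyceride synthesis, and Hilpda a lipid droplet protein. After removal of diet means, Pearson's r with Sema7a was still 0.89 for Cldn4 and 0.88 for Creb3l3, and it was lowest, at 0.63, for Arl14. Their log2 fold changes with 10% RPS lay between -1.78 for Creb3l3 and -0.53 for Galnt3, and lower values on starch follow from their choice by likeness to Sema7a.

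The question for the rest of the family was whether other ligands or receptors differed between the diets. A gene was called when edgeR's quasi-likelihood test gave an adjusted p (Benjamini-Hochberg) within 0.05 and the fold change reached 1.5. With 10% compared with 0% RPS, 0 of the 29 other tested members were called, where 1.04% of all tested genes were. At an unadjusted p under 0.05 there were 4 of 29 (13.8%), Plxnc1 higher and Sema4b, Plxna2, and Plxnb3 lower, beside 19.5% of all genes. With DESeq2's Wald test 1 of 29, Plxnc1, was called, beside 2.46% of all genes with an adjusted p. The mice of the diets did not overlap for 1 of the 29, Sema4b, beside 4.88% of all genes. Each of these shares by edgeR lay below that of all genes, and no test of that difference was made.

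Their median log2 fold change with 10% RPS was -0.03, and that of all tested genes was 0.0041. Their median absolute log2 fold change was 0.16, the same to this precision as over all genes. Of the 29, 14 had estimates above 0 and 15 below. For 18 of them the 95% interval lay within a 1.5-fold change in either direction, which held for 60.5% of all genes. The intervals of 3 members, Plxnb3, Plxnc1, and Sema4d, reached a 2-fold change.

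**Figure D3:**
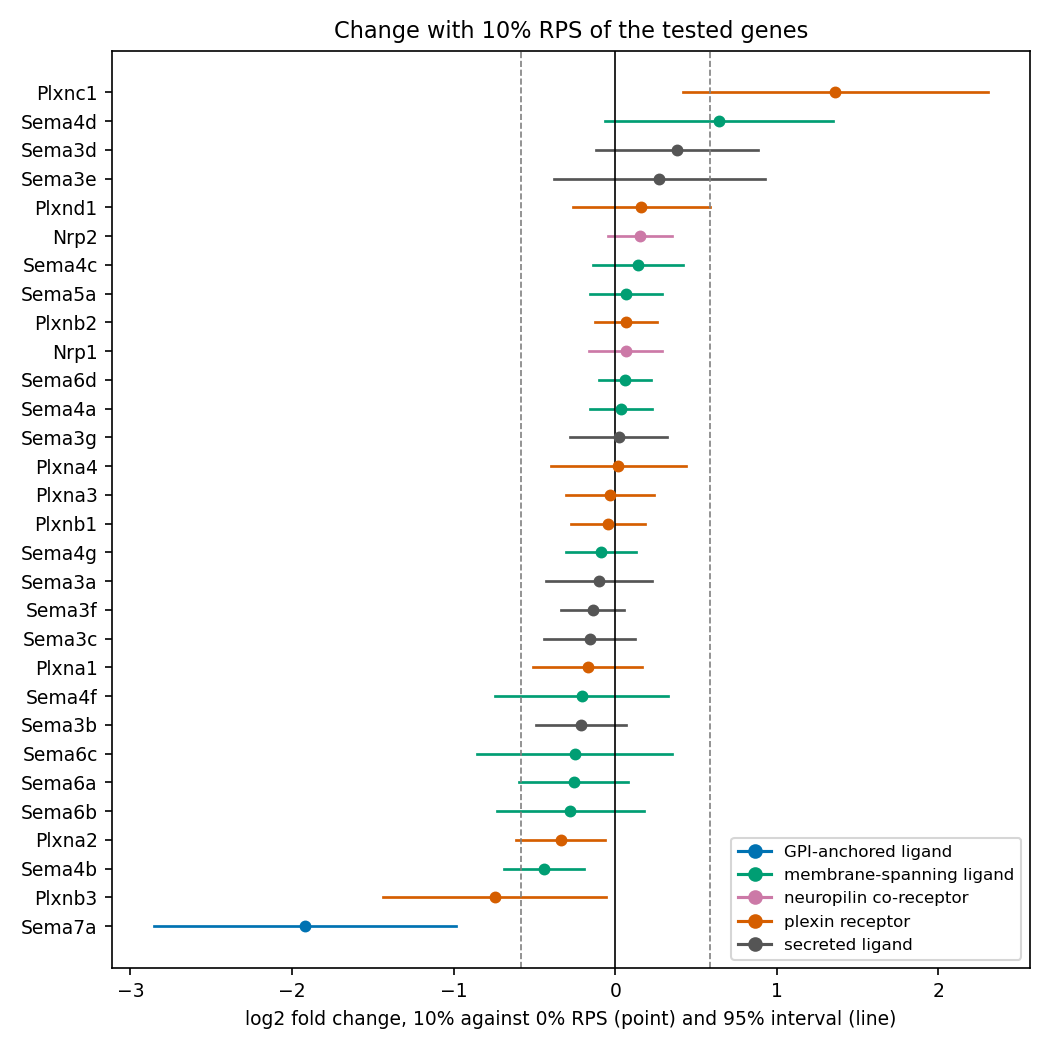
Log2 fold change with 10% compared with 0% RPS (point) and its 95% interval (line) for the 30 tested genes, colored by the kind of protein, with dashed lines at a 1.5-fold change. Sema7a stands apart at -1.92, Plxnc1 is highest at 1.36, and most of the others lie near 0. Sema7a is shown as a description because it was used to select the family.

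With 5% compared with 0% RPS, 0 of 29 members were called (0.195% of all genes), and 3 had an unadjusted p under 0.05 (13.3% of all genes). These were Sema3c and Sema4b, both lower, and Nrp2, higher. With 2% compared with 0% RPS, 0 of 29 were called (0% of all genes) and 0 had an unadjusted p under 0.05 (5.77% of all genes). With 10% compared with 2% RPS, 0 of 29 were called (0% of all genes), and Plxna2 and Sema3f (lower) and Plxnc1 (higher) had an unadjusted p under 0.05, which is 10.3% of the members beside 4.69% of all genes. In the linear trend over the percentage of RPS, called without a fold threshold, 0 of 29 passed (1.11% of all genes). At an unadjusted p under 0.05 the trend had the same 4 members as the comparison of 10% with 0% RPS (18.8% of all genes). DESeq2's Wald test called 0 members with 5% RPS (1.41% of all genes), with 2% RPS (0.027%), and with 10% compared with 2% RPS (0.0054%). In the trend it called 2 of 29, Plxnc1 and Sema4b, beside 4.84% of all genes.

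The secreted ligands, which act through neuropilin and plexin complexes, had 7 tested genes. With 10% RPS, 3 of the 7 had estimates above 0 and 4 below, from -0.21 to 0.38, and 0 had an unadjusted p under 0.05, beside 19.5% of all genes. Sema3c, an attractant and repellent in vessel and nerve growth, had the highest level of the class (16.1 RPKM) and a log2 fold change of -0.29 with 5% RPS (SE 0.14, adjusted p = 0.361 by edgeR). Sema3b had 14.5 RPKM. Sema3f, a ligand of neuropilin 2, had 2.88 ± 0.205 RPKM on 0% RPS and 2.62 ± 0.226 RPKM on 10% RPS (SD, n = 5), a log2 fold change of -0.14 (adjusted p = 0.426 by edgeR). Sema3g had 1.63 RPKM, Sema3a, the classical repellent of sensory axons, 0.462 RPKM, Sema3d 0.209 RPKM, and Sema3e, which binds plexin D1 directly, 0.116 RPKM. No member of this class passed the threshold in any comparison by edgeR, where at most 1.11% of all genes did, so 0 of 7 says little about the class.

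Among the membrane-spanning ligands, 11 of 12 were tested, with estimates above 0 for 5 and below 0 for 6 with 10% RPS. Sema4b, a class 4 semaphorin on chromosome 7 (79836046 to 79876334), had the lowest adjusted p by edgeR of the 29 members with 10% RPS, but its fold change was under the 1.5-fold limit. The mice had 149, 134.5, 119.5, 132, and 169.6 CPM on 0% RPS. They had 128, 99.8, 127, 141, and 112 CPM on 2% RPS and 100.5, 118, 123, 154, and 96.4 CPM on 5% RPS. On 10% RPS they had 94.9, 101, 113, 106, and 104 CPM. All 5 mice on 10% RPS were thus below all 5 on 0% RPS, while the 2 and 5% diets overlapped both. The log2 fold change with 10% RPS was -0.44 (95% interval -0.69 to -0.19, SE 0.12, adjusted p = 0.0589 by edgeR). With 5% RPS it was -0.25 (adjusted p = 0.374 by edgeR), and the slope was -0.040 log2 units per percent of RPS (SE 0.011, adjusted p = 0.0690 by edgeR).

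Sema4g had the highest level of the ligands, with 401, 511, 439, 440, and 551 CPM on 0% RPS. It had 515, 436, 609, 414, and 464 CPM on 2% RPS and 445, 420, 398, 457, and 459.5 CPM on 5% RPS. On 10% RPS it had 407, 494, 420, 466, and 416 CPM. The 4 diets overlapped, and the log2 fold change with 10% RPS was -0.09. Of the exon length of Sema4g, 12.7% overlaps Mrpl43 on the opposite strand, and the strand setting of the counting is not given in the sources used here. Sema4a, an immune and epithelial semaphorin, had 38.2 ± 1.90 RPKM on 0% RPS and 39.2 ± 5.91 RPKM on 10% RPS (SD, n = 5). Neither of these abundant ligands had an unadjusted p under 0.05 in any comparison, beside 4.69 to 19.5% of all genes.

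The other membrane-spanning ligands were lower in level. Sema6a, which binds plexins A2 and A4, had 6.99 RPKM over all mice, and Sema6d, which binds plexin A1, had 5.11 RPKM. Sema6d was the steadiest member, with an SD of log2 CPM within diets of 0.11, and only 8.998% of tested genes varied less. Sema4c, a ligand of plexin B2, had 1.68 RPKM, Sema5a, which carries thrombospondin repeats, 1.54 RPKM, Sema6b 0.753 RPKM, and Sema6c 0.244 RPKM. None of these 6 or Sema4f had an unadjusted p under 0.05 in any comparison of the diets, beside 4.69 to 19.5% of all genes.

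Sema4d (CD100), a semaphorin of lymphocytes that binds plexin B1 and, on B cells, CD72, varied with individual mice. On 0% RPS the mice had 17.2, 23.7, 12.04, 11.9, and 11.1 CPM, and on 2% RPS 13.1, 11.1, 35.4, 13.9, and 10.9 CPM. On 5% RPS they had 16.3, 11.1, 17.9, 21.9, and 11.4 CPM, and on 10% RPS 25.3, 10.8, 29.96, 24.6, and 27.6 CPM. Mouse 3 on 2% RPS was the highest of all, 4 mice on 10% RPS were high, and mouse 2 on 10% RPS was the lowest of all. The log2 fold change with 10% RPS was 0.64 (95% interval -0.06 to 1.35, adjusted p = 0.302 by edgeR), so the diets could not be told apart. Of its exon length, 13.7% overlaps Secisbp2 on the opposite strand.

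The plexins, the signaling receptors of the family, were all tested, with 4 of 9 estimates above 0 and 5 below 0 with 10% RPS. Plxnb2, the most abundant plexin, had 363, 421.5, 391, 410, and 451 CPM on 0% RPS, and 397, 379, 501, 479, and 405 CPM on 2% RPS. It had 414, 423, 375, 459, and 432.5 CPM on 5% RPS and 411, 505.5, 413, 406, and 396 CPM on 10% RPS. The diets overlapped, and the log2 fold change with 10% RPS was 0.07 (95% interval -0.13 to 0.26). A change of 1.5-fold thus lay outside the interval for this receptor.

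Plxnc1, the receptor of Sema7A (chromosome 10, 94626728 to 94780877), had a low level, with 1.76, 4.30, 1.28, 1.65, and 1.004 CPM on 0% RPS. It had 1.22, 1.53, 5.60, 1.87, and 1.75 CPM on 2% RPS and 2.52, 1.99, 4.12, 3.37, and 2.26 CPM on 5% RPS. On 10% RPS it had 5.89, 1.73, 6.76, 3.91, and 7.24 CPM. Most mice on 10% RPS were above most mice on 0% RPS, but mouse 2 on 0% RPS was high and mouse 2 on 10% RPS low, so that the diets overlapped. The log2 fold change with 10% RPS was 1.36 (95% interval 0.42 to 2.31, SE 0.45, adjusted p = 0.113 by edgeR) and the slope was 0.134 log2 units per percent of RPS (SE 0.039, adjusted p = 0.0784 by edgeR). When single mice of these diets were left out, the log2 fold change was 1.21 to 1.85 and the adjusted p by edgeR 0.0326 to 0.255, and 1 of 10 fits, the one without mouse 2 on 0% RPS, called it. With DESeq2's Wald test the adjusted p was 0.0357.

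Plxna2, a receptor for class 3 and class 6 semaphorins, had 88.4, 55.4, 61.2, 62.8, and 63.8 CPM on 0% RPS. It had 71.0, 68.8, 60.0, 68.4, and 50.3 CPM on 2% RPS and 54.6, 64.2, 52.8, 84.0, and 59.7 CPM on 5% RPS. On 10% RPS it had 51.4, 49.9, 48.8, 53.3, and 59.3 CPM. The 10% mice were mostly below the others, but mouse 5 on 10% RPS exceeded mouse 2 on 0% RPS. For 10% RPS the log2 fold change was -0.34 (SE 0.13, adjusted p = 0.169 by edgeR), and 16.8% of the exon length overlaps genes on the opposite strand.

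Plxnb3, a plexin of class B, had a low level, with 1.66, 1.75, 2.25, 1.31, and 2.87 CPM on 0% RPS. It had 0.535, 2.99, 1.17, 1.32, and 1.65 CPM on 2% RPS and 0.904, 1.90, 1.33, 1.35, and 1.08 CPM on 5% RPS. On 10% RPS it had 1.12, 0.826, 1.52, 0.990, and 1.43 CPM. The mice on 10% RPS were at the low end of the range but overlapped the 0% mice. Its log2 fold change with 10% RPS was -0.75 (SE 0.33, adjusted p = 0.226 by edgeR).

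**Figure D4:**
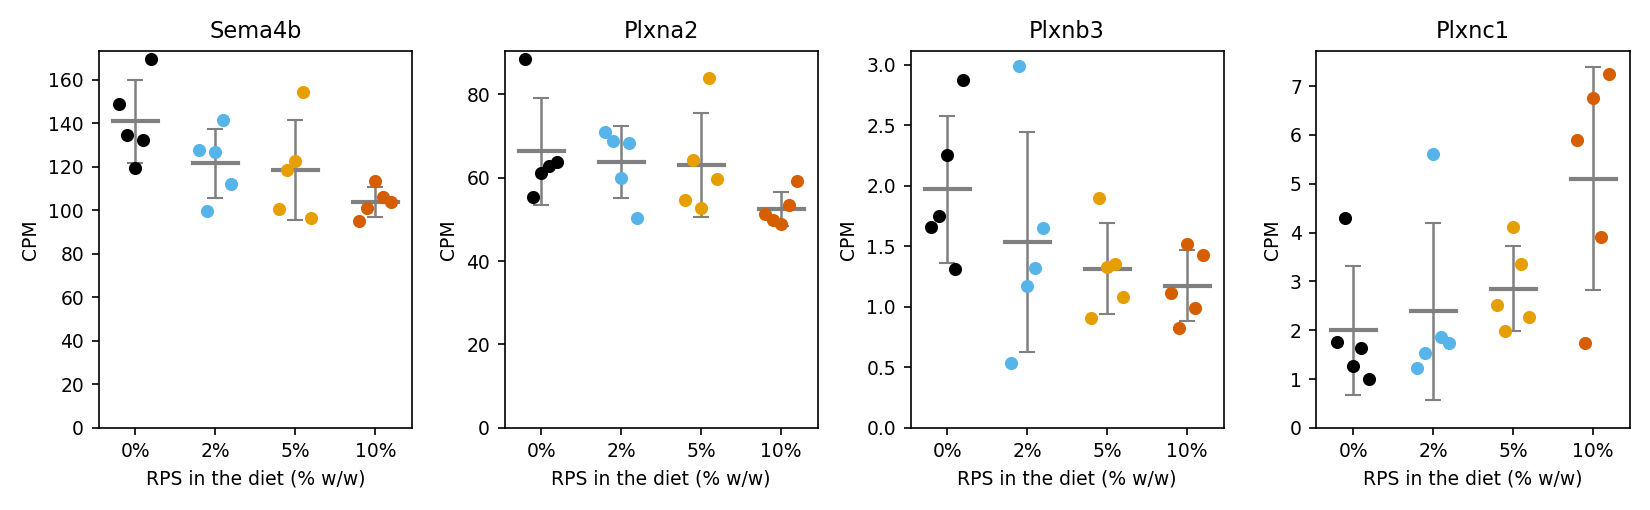
Sema4b, Plxna2, Plxnb3, and Plxnc1 in CPM (vertical axes, each from 0) by percentage of RPS, with 1 point per mouse and grey bars for the mean and SD of 5 mice. For Sema4b the 10% mice (94.9 to 113 CPM) lie below the 0% mice (119.5 to 169.6 CPM), and for the other 3 genes these diets overlap.

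The other plexins did not reach an unadjusted p under 0.05 in any comparison, beside 4.69 to 19.5% of all genes. Plxna1 had 2.39 RPKM, Plxna3 0.693 RPKM, and Plxna4 0.366 RPKM, and all 3 can pair with neuropilins. Plxnb1, the receptor of Sema4D, had 1.05 RPKM and a log2 fold change of -0.04 with 10% RPS (95% interval -0.27 to 0.18). Plxnd1, a receptor of vessel growth, had 2.15 RPKM.

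The neuropilins, which also bind vascular endothelial growth factors, had estimates above 0 in each comparison with 0% RPS. Nrp2 had 4.39 ± 0.499 RPKM on 0% RPS, 4.83 ± 0.489 on 2% RPS, 5.15 ± 0.538 on 5% RPS, and 4.89 ± 0.441 on 10% RPS (SD, n = 5). Its log2 fold change was 0.23 with 5% RPS (SE 0.09, adjusted p = 0.283 by edgeR) and 0.15 with 10% RPS (adjusted p = 0.376 by edgeR). Nrp1 had 0.631 ± 0.0378 RPKM on 0% RPS and 0.661 ± 0.0831 RPKM on 10% RPS. For neither neuropilin did the difference pass adjustment.

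The members were also set against marker lists of 16 cell types across the 20 mice, after the mean of each diet was removed so that the diets themselves did not enter. Of 480 relations, among them the 16 of Sema7a that are given only as a description, 8 passed adjustment for both Pearson's r and Spearman's rho (100000 permutations within diets), and they involved Sema4d, Plxnc1, Plxnd1, and Plxnb3. For Sema4d and the B cell list (5 genes, including Cd79a and Ms4a1) r was 0.93 and rho 0.89 (permutation p = 1e-05 for each, the smallest that these permutations can give, adjusted p = 0.00480), and r was 0.91 without the 2 mice farthest from the median score. For Plxnc1 and the B cell list r was 0.91 and rho 0.87 (adjusted permutation p = 0.00480 for each, r = 0.86 without the 2 farthest mice). For the T cell list r was 0.94 with Plxnc1 and 0.90 with Sema4d. Within the diets, mice with more B cell or T cell marker mRNA thus tended to have more Sema4d and Plxnc1, so the relation was not particular to B cells. The T cell score averaged 1.695 log2 CPM on 0% RPS and 1.948 on 10% RPS (two-sided exact permutation test, p = 0.508, adjusted p = 0.532). It was not used as a covariate.

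The summed level of the 5 B cell markers was between 5.54 and 191.6 CPM on 0% RPS, 3.86 and 283.5 CPM on 2% RPS, 8.29 and 124.8 CPM on 5% RPS, and 14.2 and 260.8 CPM on 10% RPS. The score averaged 1.97 log2 CPM on 0% RPS and 4.70 on 10% RPS (two-sided exact permutation test, p = 0.0873, adjusted p = 0.198), and 0 of the 5 markers were called or had an unadjusted p under 0.05. Mouse 3 on 2% RPS and mouse 2 on 0% RPS were the highest of their diets and mouse 2 on 10% RPS the lowest of its diet, in the score as in both genes. With the B cell score as a covariate, the log2 fold change with 10% RPS was -0.07 for Sema4d and 0.51 for Plxnc1 (adjusted p = 0.252 by edgeR), compared with 0.64 and 1.36 without it. For Sema4b it was -0.53 with this covariate.

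**Figure D5:**
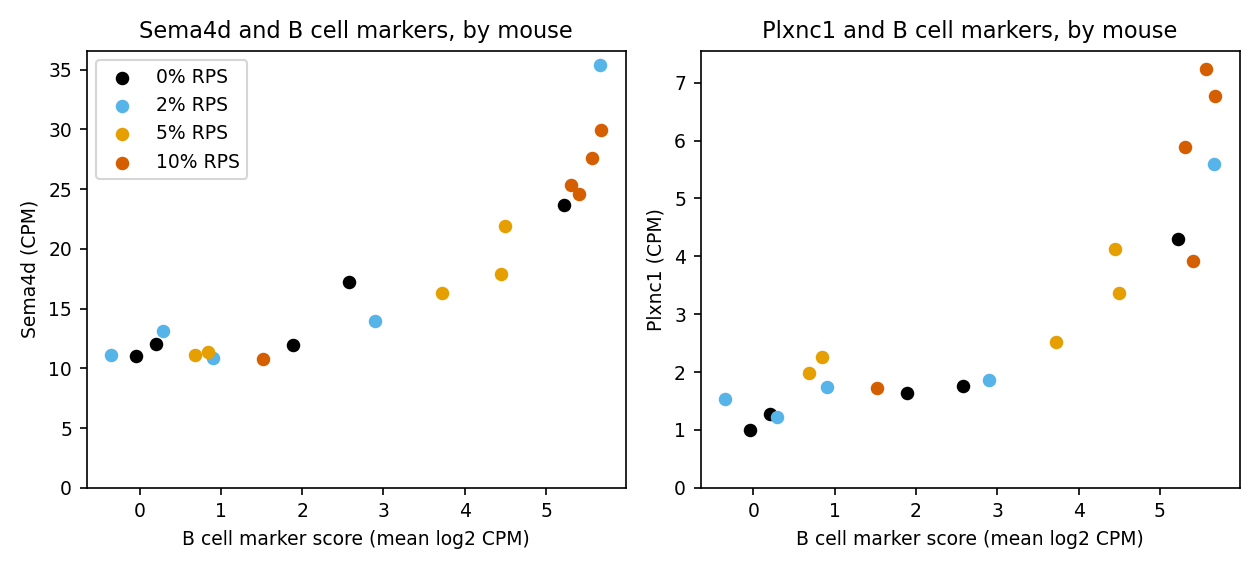
Sema4d (left) and Plxnc1 (right) in CPM against the B cell marker score (mean log2 CPM of 5 genes), with 1 point per mouse colored by diet. Mice with a high score tend to have more of both mRNAs, and 4 of the 5 mice on 10% RPS lie at a score of 5.31 or above.

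Sema4d, Plxnc1, and Plxnd1 were also related to Csf3r, the receptor of a granulocyte growth factor and the only gene of the 4 on the neutrophil list with enough counts (r = 0.82, 0.78, and 0.75). The defining neutrophil markers S100a8, S100a9, and Cxcr2 had means of at most 0.168 CPM on each diet, so this relation is to Csf3r alone. Plxnb3 was related to the enteric neuron list (5 genes, including Elavl4 and Uchl1), with r = 0.77 and rho = 0.80 (adjusted permutation p = 0.00576 and 0.0156). Summed over that list, mice on 0% RPS had 34.9 to 68.3 CPM and mice on 10% RPS 29.5 to 47.0 CPM, and its score on 10% RPS less that on 0% RPS was -0.25 log2 CPM (two-sided exact permutation test, p = 0.381). Its part in the level of Plxnb3 was not tested.

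The partners of the family outside it were examined as lists. Of 15 other receptors and co-receptors, 14 were tested and 0 were called with 10% RPS, and 5 had an unadjusted p under 0.05 (35.7%), beside 1.04% and 19.5% of all genes. Itga1, the alpha 1 integrin chain that Sema7A binds, had 55.2 ± 8.91 CPM on 0% RPS and 70.3 ± 8.37 CPM on 10% RPS, a log2 fold change of 0.35 (SE 0.13, adjusted p = 0.142 by edgeR). Cd72, a B cell receptor of Sema4D, had a log2 fold change of 1.60 (SE 0.74, adjusted p = 0.244 by edgeR), and Tyrobp, an adaptor of myeloid receptors, one of 0.57 (adjusted p = 0.145 by edgeR). Kdr and Flt1 are receptors of vascular endothelial growth factor that can associate with neuropilins. Flt1 had 28.7 ± 2.48 CPM on 0% RPS and 21.1 ± 3.41 CPM on 10% RPS, with a log2 fold change of -0.45 (SE 0.10, adjusted p = 0.0330 by edgeR), less than 1.5-fold, and it fell in the trend (adjusted p = 0.0394 by edgeR). The trend call of Flt1 was lost with the smooth muscle score as a covariate (adjusted p = 0.177 by edgeR), where 0 of all 15348 genes were called, and was kept in 8 of 20 fits with 1 mouse left out. Kdr had a log2 fold change of -0.33 (adjusted p = 0.123 by edgeR).

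Of the 6 other ligands of neuropilins, 0 were called with 10% RPS, and Vegfa alone had an unadjusted p under 0.05 (log2 fold change -0.21, adjusted p = 0.248 by edgeR). Of 28 intracellular effectors 0 were called, and 6 had an unadjusted p under 0.05 (21.4%), a share near the 19.5% of all genes. Rac1, a small GTPase of the actin cytoskeleton, had 379.6 ± 57.6 CPM on 0% RPS and 300.5 ± 28.3 CPM on 10% RPS, a log2 fold change of -0.34 (adjusted p = 0.0934 by edgeR). Rhod, another small GTPase, had a log2 fold change of -0.42 (adjusted p = 0.0964 by edgeR), and Farp1, an exchange factor, one of -0.16. Dpysl3, a collapsin response mediator protein, had a log2 fold change of 0.43, Arhgef11, a guanine nucleotide exchange factor, one of 0.23, and Crmp1, a relative of Dpysl3, one of -0.70. The median log2 fold change of the effectors was -0.0018 and that of the partner receptors was 0.039, beside 0.0041 for all genes.

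Of 43 genes of the netrin, Slit, ephrin, and repulsive guidance families, 40 were tested and 1 was called with 10% RPS, where 1.04% of all genes were. Epha2, an ephrin receptor of epithelia that was singled out as the only one called, fell from 111 ± 30.1 CPM on 0% RPS to 46.1 ± 13.0 CPM on 10% RPS (SD, n = 5). On the log2 scale the fold change was -1.27 (SE 0.27, adjusted p = 0.0271 by edgeR). This call of Epha2 was lost with the smooth muscle score as a covariate (log2 fold change -1.08, adjusted p = 0.139 by edgeR), where 0 of all 15348 genes were called, and was kept in 4 of 10 fits with 1 mouse left out. It was also lost with the B cell score as a covariate (log2 fold change -1.197, adjusted p = 0.0598 by edgeR), where 104 genes (0.678%) were called. The share of these 40 genes with an unadjusted p under 0.05 was 22.5%, beside 19.5% of all genes.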

How the data were processed

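Poly(A) RNA was made into stranded libraries and read from a single end. After trimming of low-quality bases and ambiguous reads, the authors used the CLC Genomics Workbench to map to GRCm39 and deposited raw read counts per gene for 20 mice. The annotation release, the strand setting, and the treatment of reads mapping to several genes are not given in the sources used here, so overlapping genes are less certain. Mice were assigned to diets by the treatment label, and the mouse numbers differ between diets, so there was no pairing. Other gut segments were not analysed here.

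Members were matched by symbol in GENCODE M39 (19827 of 19887 identifiers). The members, the gene lists, and the alternatives were chosen with earlier results of these data known. Counts were analyzed with edgeR 4.0.16 in R 4.3.3 (filterByExpr, minimum count 10 and 15 in total, TMM factors 0.916 to 1.07, robust quasi-likelihood fit of all 4 diets), with Benjamini-Hochberg adjustment over 15348 genes, two-sided. The study used DESeq2, which served here as an alternative (1.42.0). CPM are scaled by TMM, log2 CPM used a prior count of 2, and a cell type score is the mean log2 CPM of its list. The model was tested on simulated counts. Tables and figures used Python 3.11.15, scipy 1.17.1, and matplotlib 3.10.9.

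All members were named. Values in every mouse were given for Sema7a, members with an unadjusted p under 0.05 with 10% RPS or in the trend, the most abundant ligand and receptor, and Sema4d, which was added after its values were seen. Also named were the 10 genes most like Sema7a and the partner and effector genes with an unadjusted p under 0.05 with 10% RPS. Alternatives were DESeq2's size factors and Wald test, other filters, no robust estimate, smooth muscle or B cell scores or 1 surrogate variable (sva 3.50.0) as covariates, only the diets compared, no fold threshold, the rank of the dose, the longest transcript as length, and each mouse left out.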

Additional observations from a re-analysis of the deposited data

Results flagged for a closer look

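In 16 of the 120 groups of 5 mice formed by the 30 tested members and 4 diets, 1 mouse lay far from the other 4 (Dixon's ratio above 0.71). About 1 in 20 independent groups of normally distributed values would pass that limit. These groups share mice and hold unlogged CPM, and the share over all genes is not given. No excess can therefore be read from the count. Mouse 3 on 2% RPS accounted for 5 of the 16 groups, all high. It had 35.35 CPM of Sema4d (others 10.9 to 13.9), 5.602 CPM of Plxnc1 (1.22 to 1.87), 25.31 CPM of Plxnd1 (13.4 to 16.0), 20.46 CPM of Sema3f (15.6 to 16.4), and 7.429 CPM of Sema6b (4.04 to 4.49). The same mouse had the highest B cell score of its diet, 5.66 log2 CPM, where the others had -0.35 to 2.90. Mouse 2 on 0% RPS was high for Plxnc1 (4.3 CPM, others 1.004 to 1.76), and mouse 2 on 10% RPS was low for Sema4d (10.82 CPM, others 24.6 to 29.96) and high for Plxnb2 (505.5 CPM, others 396 to 413). Their B cell scores of 5.22 and 1.52 log2 CPM were the highest and the lowest of their diets. Within diets, r with that score was 0.93 for Sema4d and 0.91 for Plxnc1 but 0.08 for Plxnb2. Mouse 2 on 10% RPS also had the highest epithelial (10.45 log2 CPM) and surface colonocyte (9.83 log2 CPM) scores of its diet. What set the values of these single mice apart was not tested.

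Mouse 4 on 5% RPS was high for Sema6a (97.82 CPM, others 56.2 to 58.7) and Plxna1 (65.72 CPM, others 30.1 to 35.4), and its smooth muscle score of 10.6 log2 CPM was the highest of its diet. So were other scores of this mouse, among them goblet (10.34 log2 CPM), epithelial (10.35), and B cell (4.50). Mouse 3 on 10% RPS was high for Sema6b (5.214 CPM, others 4.31 to 4.52) and Sema6c (3.539 CPM, others 2.07 to 2.44). Single mice stood apart for Plxna2 (88.44 CPM in mouse 1 on 0% RPS, others 55.4 to 63.8) and Sema6c (6.34 CPM in mouse 5 on 0% RPS, others 1.69 to 2.93). Nrp2 was low in mouse 4 on 2% RPS (47.74 CPM, others 59.4 to 61.8), and Sema3e was high in mouse 4 on 10% RPS (3.015 CPM, others 1.296 to 1.46).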

How the results depend on the processing

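With DESeq2's Wald test, 1 member other than Sema7a was called with 10% RPS (Plxnc1) and 2 in the trend (Plxnc1 and Sema4b). When single mice were left out, the count was 0 to 1 with 10% RPS, where Plxnc1 was called without mouse 2 on 0% RPS (2.23% of all genes called). In the trend it was also 0 to 1, with Plxnc1 called without mouse 2 on 0% RPS (1.66% of all genes), mouse 3 on 2% RPS (4.37%), or mouse 2 on 10% RPS (0.888%), and Sema4b without mouse 4 on 5% RPS (1.54%). The trend count was 3 of 29 with 1 surrogate variable (Plxnc1, Sema4b, Sema6a; 8.42% of all genes) and 1 with the rank of the dose (Sema4b; 3.51% of all genes). With the smooth muscle score as a covariate the log2 fold change of Sema7a with 5% RPS was -0.996. With the B cell score as a covariate the estimates of Sema4d turned to -0.0665 with 10% RPS and -0.0126 per percent of RPS. The cause of these shifts was not tested. Another 100 counts of members were again 0, but 43 of these came from edgeR fits that called 0 of all genes (among them each fit of 2 against 0% and of 10 against 2% RPS and those with the smooth muscle score), and say nothing of stability. A further 56 values of Sema7a moved by less than the spread between mice. For Plxna2, Plxnb3, Plxnc1, Sema4b, and Sema4d, 227 fold changes with 10% RPS or slopes kept their direction and their side of the threshold. With 1 mouse left out, the estimate changed sign in at least 1 fit for 8 of 29 members with 10% RPS and for 7 in the trend, as for Sema6c (-0.40 to 0.23 with 10% RPS). Another 11 values, all of Plxnc1 or Sema4b, kept their direction and passed the threshold. With the longest transcript in place of all exons, 23 of 31 levels per length moved, and Sema4g, at 100.6 RPKM, became the highest. No paired analysis was possible because mice on different diets carry different numbers in the labels. Estimates of members with wide intervals, such as Plxnc1, Sema4d, and Plxnb3, are limited by the spread between mice.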
